A study of Homo sapiens with 6 samples.

Results

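The genes described are 10 that carry a calcium signal from the cell surface to the nucleus of a T cell: the store-operated calcium entry genes ORAI1 and STIM1, the calcineurin genes PPP3CA, PPP3CB and PPP3R1, the calcineurin regulator RCAN1, and the transcription factor genes NFATC1, NFATC2, NFATC3 and NFAT5. They were chosen by symbol, all 10 matched an Ensembl gene identifier among the 60856 features of the tables, and all 10 were among the 15490 features that passed the filter on low counts. Messenger RNA was sequenced from wild-type Jurkat cells, a T lymphocyte line established from a human leukemia, in 3 libraries from cells given 0.1% dimethyl sulfoxide (DMSO, the solvent) and 3 from cells given 1 µM bisphenol AF (BPAF), a fluorinated relative of bisphenol A. The stated exposure is 12 h in the sample labels and the design text but 24 h in the treatment protocol. The labels name no other treatment in either group, and do not say whether the BPAF medium also held DMSO. The cells of such a line have 1 genetic background and are not primary T cells.

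Engagement of the T-cell receptor empties calcium from the endoplasmic reticulum. The sensor STIM1 then opens ORAI1 channels in the plasma membrane, and the calcium that enters binds calmodulin, which switches on the phosphatase calcineurin. Calcineurin removes phosphate from the cytoplasmic NFAT proteins, which move into the nucleus and induce genes such as IL2, while RCAN1 is an induced inhibitor that feeds back on calcineurin. NFAT5 shares the DNA-binding domain of the family but lacks the calcineurin docking region and is best known for the response to osmotic stress.

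The libraries held 20253656 to 22617613 counts, with overlapping totals in both groups. All 11 T lymphocyte markers examined, among them CD3E, LCK and ZAP70, were above 1 CPM (counts relative to library size, scaled by the TMM method) in every library, and their summed level was 2821 to 2858 CPM in DMSO and 2731 to 2811 CPM in BPAF. None of 9 monocyte or macrophage markers and none of 6 epithelial markers reached 1 CPM in every library, EPCAM, KRT19 and CDH1 being at 0 throughout. The monocyte list summed to 0.78 to 1.31 CPM in DMSO and 0.87 to 1.27 CPM in BPAF, and the epithelial list to 0.41 to 0.73 and 0.65 to 1.13 CPM. Among 8 B lymphocyte markers, CD79A, BLK and CR2 were above 1 CPM, with a summed list level of 26.5 to 27.6 CPM in DMSO and 25.0 to 26.4 CPM in BPAF, and FCRL1 was at 0. Of 6 fibroblast markers, COL1A1 was above 1 CPM and COL3A1, DCN and LUM were at 0, the list summing to 2.87 to 3.02 CPM in DMSO and 2.44 to 3.01 CPM in BPAF. In bulk RNA of this kind, fewer cells carrying a transcript and less transcript per cell cannot be told apart. Replicates are described as biological in the design text, with no separate cultures or days named, so p-values measure the spread between these libraries.

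No gene of the group passed the test for a difference between BPAF and DMSO. With edgeR, 0 of 10 had an adjusted p under 0.05 (Benjamini-Hochberg over all tested genes), where 6.06% of all tested genes did, and 0 of 10 passed with DESeq2 (4.07% of all tested genes) and with limma-voom (5.73%). An unadjusted p under 0.05 was found for 2 of the 10, NFAT5 and RCAN1, against 19.9% of all tested genes. The median log2 fold change (BPAF minus DMSO) was -0.0098 over the 10 genes and 0.0019 over all tested genes, with 4 of the 10 above 0 and 6 below. Upper quartile scaling put the median of the 10 at 0.0011, and the values of NFATC1, NFATC2, NFATC3, ORAI1, PPP3CB and PPP3R1 changed sign in at least 1 alternative analysis. Of the 10 genes, NFAT5 was the 1 whose CPM did not overlap between the groups, where 24.8% of all tested genes did not.

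**Figure D1:**
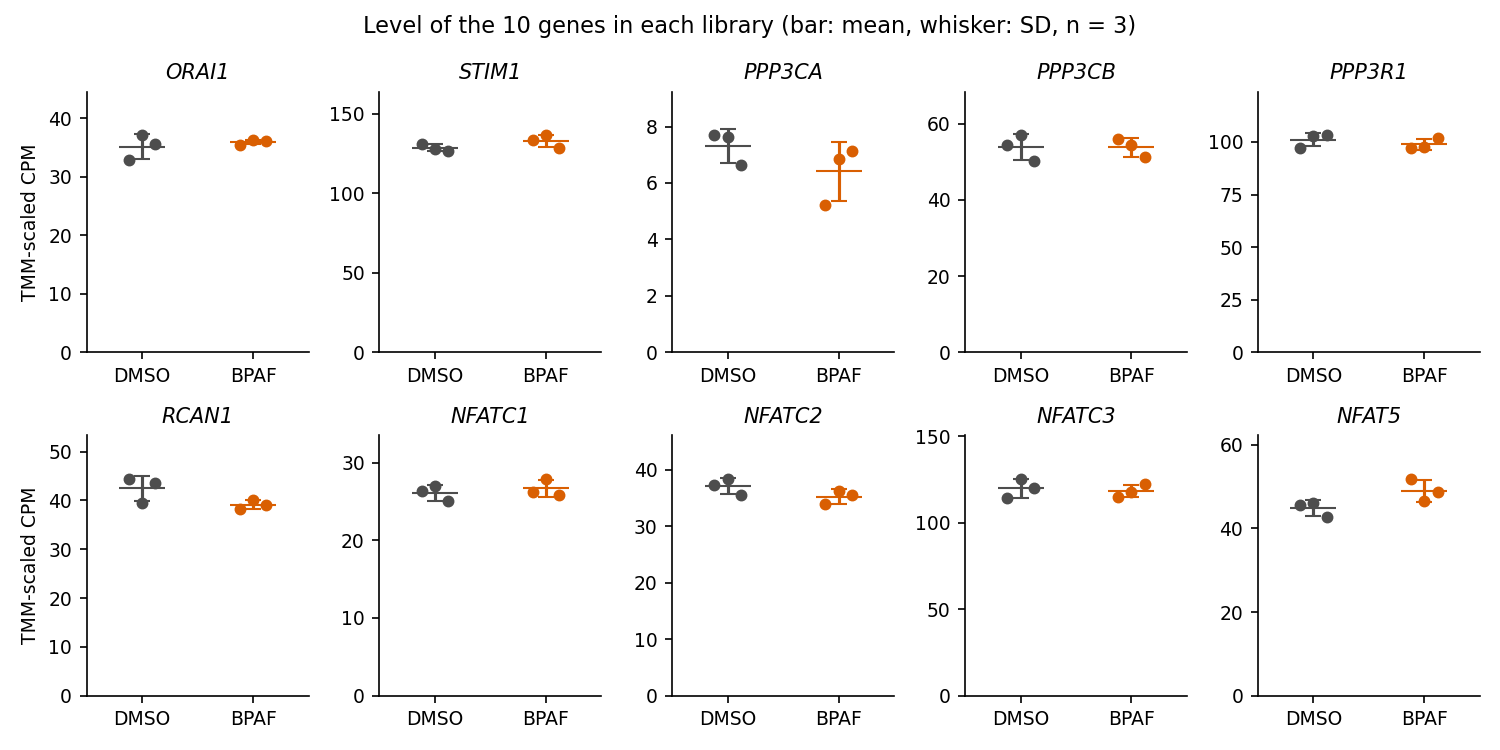
TMM-scaled CPM (vertical axes, each from 0) of the 10 genes in the 3 DMSO and 3 BPAF libraries; points are libraries, horizontal bars group means and whiskers SD. NFAT5 is the only gene whose groups do not overlap, at 42.7 to 46.1 CPM in DMSO and 46.4 to 51.8 CPM in BPAF.

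ORAI1 encodes the pore subunit of the calcium release-activated channel (ENSG00000276045, GRCh38 chromosome 12, 121626550 to 121642677, plus strand). Its level was 32.9, 37.1 and 35.6 CPM in the DMSO libraries and 35.5, 36.2 and 36.1 CPM in the BPAF libraries. The BPAF values lay inside the range of the DMSO values. The log2 fold change was 0.03 with a standard error (SE) of 0.06 and an edgeR adjusted p of 0.828, and the 95% interval of the percent change ran from -5.91% to 11.1%, an interval for the gene on its own, as are those that follow.

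STIM1, the calcium sensor of the endoplasmic reticulum (ENSG00000167323, chromosome 11, 3854527 to 4093210, plus strand), was at 131, 128 and 127 CPM in DMSO and at 134, 137 and 129 CPM in BPAF. The third BPAF library lay between the DMSO values, so the groups overlapped. Its log2 fold change was 0.05 ± 0.03 (SE) by edgeR, with an adjusted p of 0.515 and an interval from -1.82% to 8.53%. This was the narrowest interval of the 10 genes. The value was 0.03 without BPAF replicate 2 and 0.0031 with an offset for gene length and GC content. Exons of STIM1 overlap those of non-coding genes on both strands.

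Calcineurin is built from a catalytic A subunit and a calcium-binding regulatory B subunit. PPP3CA and PPP3CB each encode a form of the A subunit, and PPP3R1 encodes a B subunit. PPP3CA (ENSG00000138814, chromosome 4, 101023409 to 101348278, minus strand) had the fewest counts of the 10 genes, at 7.69, 7.63 and 6.63 CPM in DMSO and 5.23, 6.86 and 7.14 CPM in BPAF. The first BPAF library was the lowest of the 6, and the other two BPAF libraries lay among the DMSO values. The log2 fold change was -0.19 ± 0.14 (SE) by edgeR, with an adjusted p of 0.492, and the interval reached from -28.2% to 6.96%, the widest of the group. At its 113 to 168 counts per library, the data could not tell a decrease within that interval from no difference. The value was -0.06 without BPAF replicate 1 and -0.28 without BPAF replicate 3.

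PPP3CB (ENSG00000107758, chromosome 10, 73436428 to 73496024, minus strand) was at 54.4, 56.9 and 50.1 CPM in DMSO and 56.0, 54.3 and 51.2 CPM in BPAF, with fully overlapping groups. Its log2 fold change was -0.0013 ± 0.053 (SE) by edgeR, with an adjusted p of 0.996 and an interval from -7.50% to 7.92%. The sign of this value changed with the scaling and the libraries used. PPP3R1 (ENSG00000221823, chromosome 2, 68178857 to 68256237, minus strand) was at 97.4, 103 and 103 CPM in DMSO and 97.2, 97.6 and 102 CPM in BPAF. Its log2 fold change was -0.03 ± 0.04 (SE) by edgeR, with an adjusted p of 0.736 and an interval from -7.42% to 3.53%, and its groups overlapped too. Exons of PPP3R1 overlap those of another annotated protein-coding gene, AC017083.3, on the same strand, and its deposited counts were whole numbers in 0 of 6 libraries, so its counts are uncertain. PPP3CB overlaps the antisense gene PPP3CB-AS1, with whole counts in 6 of 6.

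RCAN1 (ENSG00000159200, chromosome 21, 34513142 to 34615142, minus strand) has several annotated transcription starts. Transcripts from the upstream start are known as the calcineurin-independent isoform, while an internal promoter with clustered NFAT sites is known to respond to calcineurin. RCAN1 was picked as a member of the group known as a transcriptional target of calcineurin and NFAT. The 250 bases before its most upstream start, and before its start with the most NFAT core matches, are shown. They are given from the RefSeq promoter table (GRCh38.p14), 5′ to 3′ on the minus strand, with capitals marking the NFAT core GGAAA or its reverse complement TTTCC. The upstream window is chr21:34615114-34615363 and the internal window is chr21:34526823-34527072, 88291 bases further into the gene.
RCAN1 upstream start: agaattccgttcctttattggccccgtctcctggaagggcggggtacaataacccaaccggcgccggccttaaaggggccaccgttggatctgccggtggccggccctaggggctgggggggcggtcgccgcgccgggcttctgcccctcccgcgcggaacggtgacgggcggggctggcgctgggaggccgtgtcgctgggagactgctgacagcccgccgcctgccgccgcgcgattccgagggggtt
RCAN1 internal start: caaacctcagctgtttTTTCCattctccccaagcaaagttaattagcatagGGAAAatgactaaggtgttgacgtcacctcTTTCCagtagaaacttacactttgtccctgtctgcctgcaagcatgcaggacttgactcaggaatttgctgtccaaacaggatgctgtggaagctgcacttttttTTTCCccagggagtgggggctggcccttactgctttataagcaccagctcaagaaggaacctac
The upstream window held 0 cores and the internal window held 4, counting both strands, and at least 1 core was found in 55.6% and at least 4 in 1.87% of all 35116 windows of that length in the table. The other 4 RCAN1 windows in the table held 0. The internal window was chosen for its number of cores, so the 1.87% does not measure how unusual it is. Whether its start is the one known to respond to calcineurin was not tested. Over the 6 genes of the group with windows there, NFATC1, NFATC2, NFATC3, PPP3R1, RCAN1 and STIM1, 8 of 16 windows held at least 1. A match is a description of these letters and not a measured binding site.

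RCAN1 was at 44.4, 39.5 and 43.5 CPM in DMSO and at 38.2, 40.0 and 39.2 CPM in BPAF. The second DMSO library lay within the BPAF range, and the other two DMSO libraries lay above all BPAF libraries. Group levels were 42.5 ± 2.60 and 39.1 ± 0.93 CPM (SD, n = 3), and edgeR estimated -0.12 ± 0.06 (SE) for the log2 fold change, adjusted p = 0.229, unadjusted p = 0.0428. The interval ran from -15.1% to -0.30%, and the adjusted p ranged from 0.0864, without DMSO replicate 2, to 0.762 over 16 alternative analyses. Counts are summed over the gene, so transcripts from the printed starts were not told apart. Among 71 genes of the surrounding lists whose log2 CPM averaged 1 or more, the log2 CPM of CDC42 (Pearson r = 0.860) and CALM2 (0.859) followed RCAN1 most closely over the 6 libraries. These 6 points share the difference between the groups, and the correlations are given as a description only.

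The 3 calcineurin-dependent NFAT genes had overlapping groups. NFATC1 (ENSG00000131196, chromosome 18, 79395856 to 79529325, plus strand) was at 26.3, 26.9 and 25.0 CPM in DMSO and 26.3, 27.9 and 25.9 CPM in BPAF, and edgeR estimated 0.03 ± 0.06 (SE) for the log2 fold change, adjusted p = 0.847. NFATC2 (ENSG00000101096, chromosome 20, 51386957 to 51562831, minus strand) was at 37.4, 38.4 and 35.6 CPM in DMSO and 33.9, 36.3 and 35.6 CPM in BPAF, and edgeR estimated -0.07 ± 0.06 (SE) for the log2 fold change, adjusted p = 0.513. The values of NFATC3 (ENSG00000072736, chromosome 16, 68084751 to 68229259, plus strand) were 114, 125 and 119.8 CPM in DMSO and 115, 118 and 122 CPM in BPAF, and edgeR estimated -0.02 ± 0.04 (SE) for the log2 fold change, adjusted p = 0.857. All 3 BPAF values of NFATC3 lay inside the DMSO range. The intervals were -6.77% to 12.1% for NFATC1, -12.4% to 2.98% for NFATC2 and -6.69% to 4.47% for NFATC3. The libraries were strand-specific, but whether the counting used strand is not stated. Exons of NFATC3 overlap those of ESRP2 on the other strand and of non-coding genes on both, and its deposited counts were whole in 0 of 6 libraries.

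NFAT5 (ENSG00000102908, chromosome 16, 69565094 to 69704666, plus strand), the tonicity-responsive member, was at 45.7, 46.1 and 42.7 CPM in DMSO and 51.8, 46.4 and 48.6 CPM in BPAF. Every BPAF library lay above every DMSO library, though the second BPAF library was close to the second DMSO library. Group levels were 44.8 ± 1.86 and 49.0 ± 2.72 CPM (SD, n = 3), and edgeR estimated 0.13 ± 0.05 (SE) for the log2 fold change, adjusted p = 0.178, unadjusted p = 0.0271, with an interval from 1.12% to 18.1%. The adjusted p lay between 0.121 and 0.544 over 16 alternative analyses, and the log2 fold change was 0.0846 without BPAF replicate 1, the lowest of them, and 0.286 on log2 of TPM plus 0.1, the highest. NFAT5 has the longest exon union of the group, 16401 bases, and shares exon bases with a non-coding RNA on the same strand and a microRNA on the other, and its deposited counts were whole in 0 of 6 libraries.

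**Figure D2:**
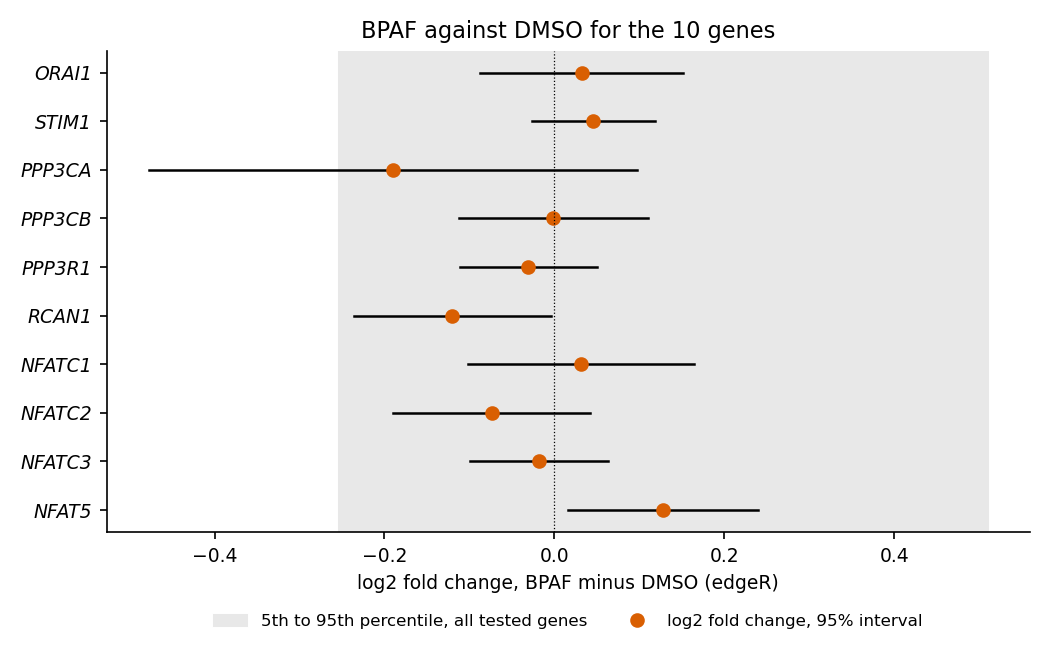
Log2 fold change (BPAF minus DMSO, horizontal axis) of each gene with its 95% interval from edgeR; the grey band spans the 5th to 95th percentile of all tested genes, from -0.25 to 0.51. All 10 estimates lie inside the band, from -0.19 for PPP3CA to 0.13 for NFAT5.

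The precision of these comparisons was close to that of other genes in the range of abundance that the group spans. The 10 genes had average log2 CPM values from 2.80 to 7.03, a range that held 8798 tested genes, of which 6.56% were called. PPP3CA alone set the lower end, at 7.32 CPM in DMSO, and NFATC1, the next lowest, averaged 26.1 CPM there. The range therefore reaches well below the level of most of the group. The median SE of a log2 fold change was 0.055 for the 10 genes and 0.058 in that range. The median size of the log2 fold change, whatever its sign, was 0.039 for the 10 genes and 0.066 in that range. Apart from PPP3CA, every interval lay between -15.1% and 18.1%.

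Levels can be compared between genes on the deposited TPM scale, which takes gene length into account. On that scale STIM1 was the most abundant of the 10 genes, at 58.2 ± 3.87 TPM in DMSO and 66.0 ± 1.07 TPM in BPAF (SD, n = 3), and PPP3CA the least, at 2.45 ± 0.25 and 2.30 ± 0.39 TPM. Over all 6 libraries the mean level of STIM1 was 26.1-fold that of PPP3CA. The order was STIM1, PPP3R1, NFATC3, ORAI1, RCAN1, PPP3CB, NFATC1, NFATC2, NFAT5 and PPP3CA. Over the 6 libraries the ranges of ORAI1 and RCAN1 overlapped, as did those of RCAN1 and PPP3CB, and every other pair of neighbours was apart.

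**Figure D3:**
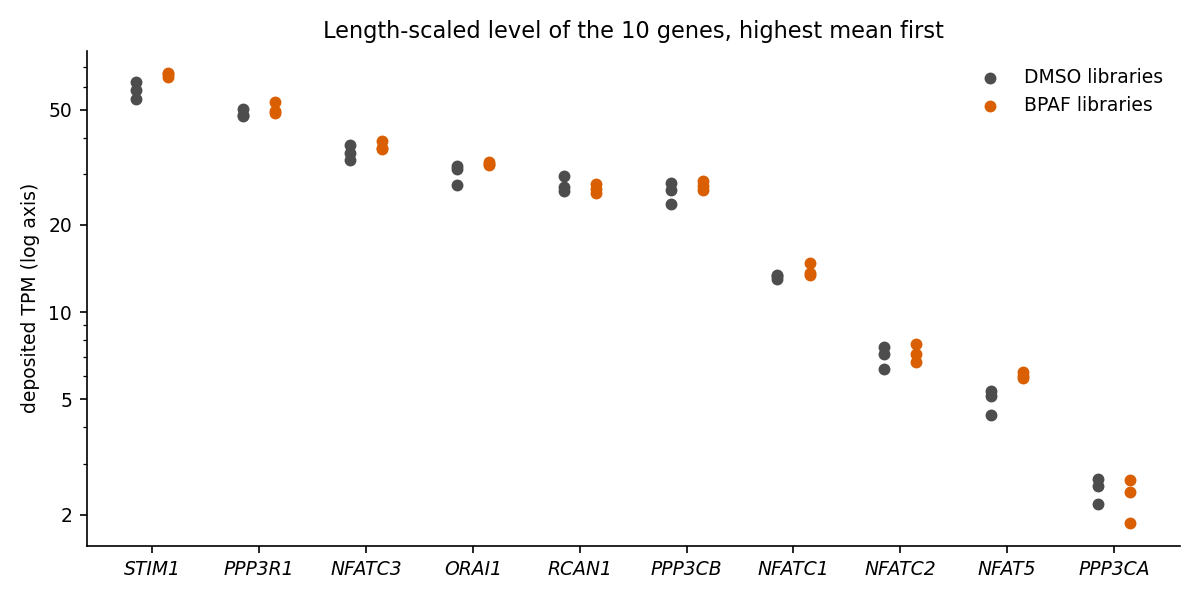
Deposited TPM (vertical log axis) of the 10 genes in each DMSO and BPAF library, ordered by mean. STIM1 leads at 54.4 to 66.7 TPM and PPP3CA is lowest at 1.87 to 2.66 TPM.

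NFATC3 supplied most of the NFAT transcript, with 58.4 ± 1.69% (SD, n = 3) of the summed TPM of the 4 NFAT genes in DMSO and 57.8 ± 1.05% in BPAF. NFATC1 followed with 21.8 ± 0.72% and 21.6 ± 1.24%, and NFATC2 with 11.6 ± 0.73% and 11.2 ± 0.58%. The share of NFAT5 was 8.99%, 8.06% and 7.49% in DMSO and 9.85%, 9.34% and 8.99% in BPAF, values that met at their edges. Of the summed TPM of PPP3CA and PPP3CB alone, PPP3CB made up 91.4 ± 0.17% in DMSO and 92.2 ± 1.48% in BPAF, and PPP3CA 8.62 ± 0.17% and 7.79 ± 1.48%. These shares are descriptions of chosen genes and were not tested.

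On the deposited TPM, ORAI1 and STIM1 were the most abundant genes of their families. In CPM, which does not take gene length into account, ORAI2 was higher than ORAI1, at 92.2 against 35.2 CPM in DMSO. The exon union was 11103 bases for ORAI2 and 2262 for ORAI1. STIM1 was higher than STIM2 in CPM too, at 128.7 against 39.2 CPM in DMSO. ORAI1 took 68.9 ± 0.92% of the summed TPM of ORAI1, ORAI2 and ORAI3 in DMSO and 67.9 ± 0.94% in BPAF. STIM1 took 77.9 ± 1.92% and 78.7 ± 3.30% of that of STIM1 and STIM2. NFATC4, the remaining calcineurin-dependent family member, was at 4.17 ± 0.96 TPM in DMSO and 4.23 ± 0.77 TPM in BPAF.

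The deposited TPM and counts did not place the groups in the same relation. All 10 genes had a higher log2 fold change on log2 of TPM plus 1 than on counts, their median going from -0.0098 to 0.071 and that of all tested genes from 0.0019 to 0.078. The count fit used TMM factors, 0.982 to 0.992 in DMSO and 1.008 to 1.016 in BPAF, and the TPM fit used none. How much of the shift came with these factors was not tested. STIM1 was at 58.2, 62.1 and 54.4 TPM in DMSO and 66.7, 66.5 and 64.8 TPM in BPAF, so its groups were apart on this scale and overlapped in CPM. Its log2 fold change was 0.18 ± 0.06 on log2 of TPM plus 1 (SE, limma adjusted p = 0.191) against 0.05 on counts. NFAT5 was at 5.34, 5.15 and 4.43 TPM in DMSO and 6.22, 6.04 and 5.94 TPM in BPAF, which limma put at 0.25 ± 0.10 (SE, adjusted p = 0.279). Groups of TPM did not overlap for 4 of the 10 genes, NFATC1, NFAT5, ORAI1 and STIM1, each higher in BPAF, where 24.5% of all tested genes did not overlap and 21.0% were apart with BPAF higher. Limma on TPM called 0 of the 10 genes, with TPM plus 1 and with TPM plus 0.1. These fits called 1 and 2 of all 15490 tested genes, so a count of 0 says little about the 10.

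Counts were divided by the library total, without TMM factors, and then by TPM. This ratio scales with the gene length behind the TPM value and with a factor common to a library. On average, the ratio was lower in BPAF for all 10 genes. The log2 difference was -0.13 for NFAT5, -0.10 for STIM1 and -0.0052 for NFATC1, and its median was -0.050 over the 12796 tested genes with at least 1 TPM in every library. Its part in the TPM differences was not tested.

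**Figure D4:**
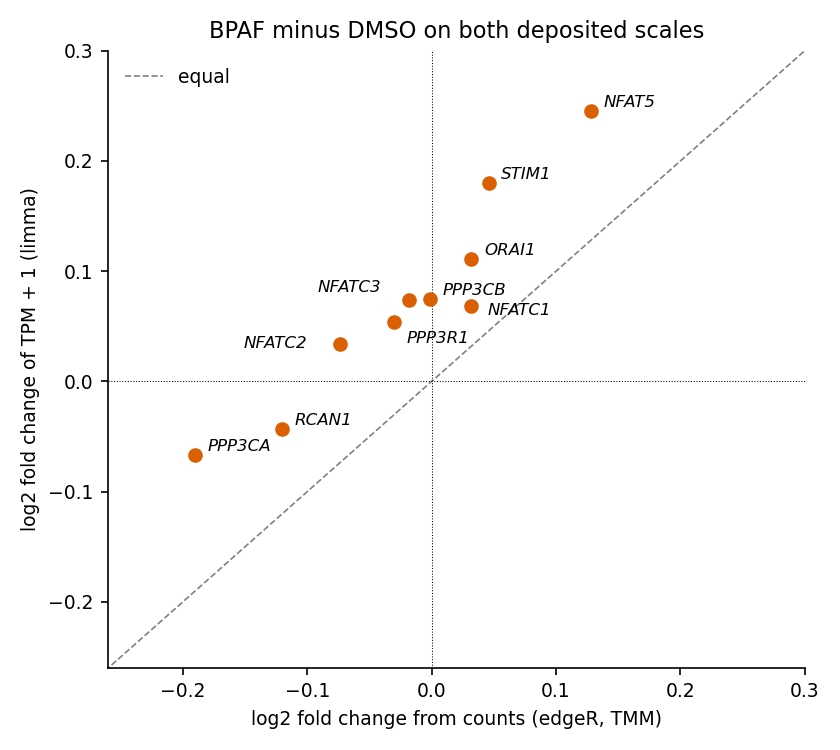
Log2 fold change (BPAF minus DMSO) of the 10 genes from counts (horizontal axis, edgeR) and from deposited TPM plus 1 (vertical axis, limma), with the dashed line marking equality. Every gene lies above the line, STIM1 at 0.05 and 0.18 and NFAT5 at 0.13 and 0.25.

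Around the group, 5 lists of pathway genes gave 109 symbols, of which 80 were tested, and 1 rose and 5 fell (edgeR), against 2.65% higher and 3.40% lower among all tested genes. The 5 include EGR3, which passed the count filter only through its DMSO libraries. The median log2 fold change of the 80 was -0.0047. Among 29 genes of calcium entry and handling, edgeR called 0, as did DESeq2 and limma-voom. These tools called 6.06%, 4.07% and 5.73% of all tested genes. An unadjusted edgeR p under 0.05 was found for 1 of the 29, against 19.9% of all tested genes. That gene was ORAI2, a second channel subunit, at 90.6, 92.1 and 93.8 CPM in DMSO and 103, 96.3 and 103 CPM in BPAF. The groups were apart, as were those of 24.8% of all tested genes, and edgeR estimated 0.13 ± 0.04 (SE) for the log2 fold change, adjusted p = 0.0587. Exons of ORAI2 overlap those of ALKBH4 on the other strand, and its deposited counts were whole in 0 of 6 libraries, so its counts are uncertain. ORAI2 was called in 3 of 16 alternatives, with upper quartile scaling (0.0431), with a minimum of 1 CPM in 3 libraries (0.0485) and without BPAF replicate 2 (0.0351). Its adjusted p was highest, 0.385, with the offset for gene length and GC content, where the log2 fold change was 0.064. The next smallest p-values in that list belonged to TPCN1 (log2 fold change 0.11, edgeR adjusted p = 0.340), MCU (-0.09, 0.425) and P2RX4 (0.16, 0.429), which encode an endolysosomal channel, the mitochondrial calcium uniporter pore and an ATP-gated channel.

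**Figure D5:**
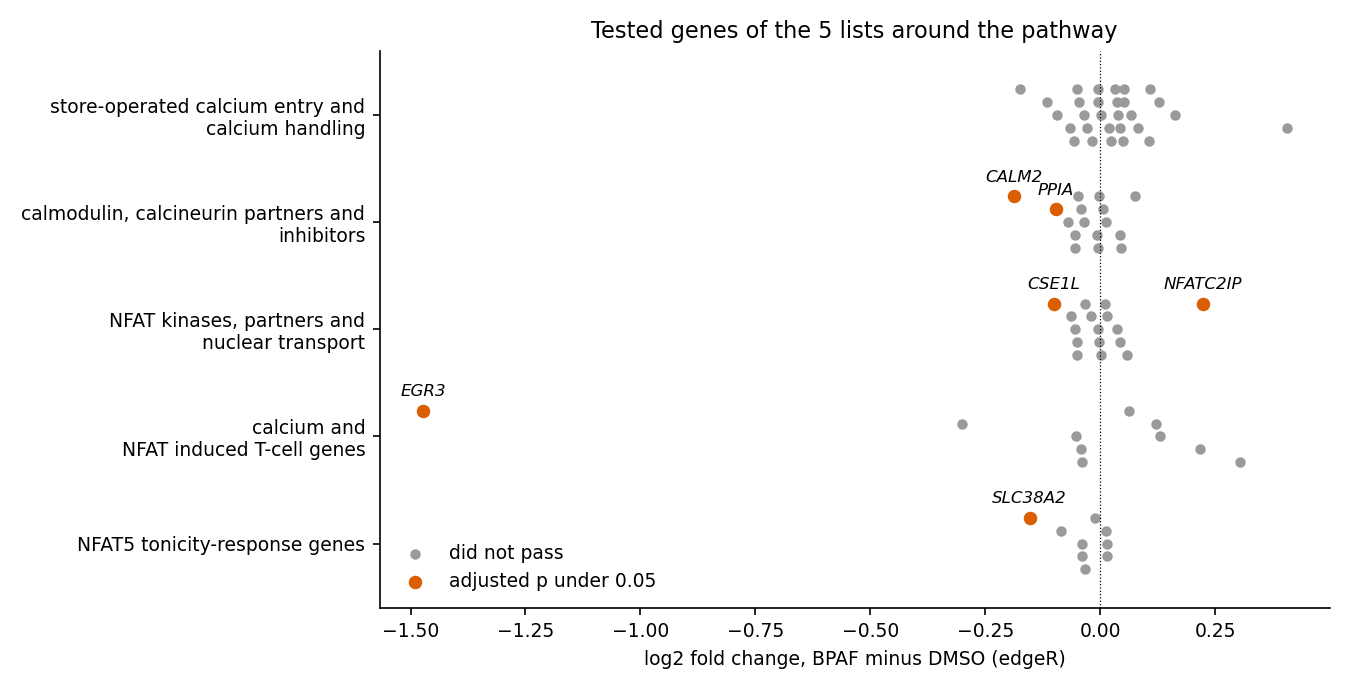
Log2 fold change (BPAF minus DMSO, horizontal axis, edgeR) of the tested genes in the 5 surrounding lists, 1 row of points per list; labelled orange points passed an adjusted p of 0.05. NFATC2IP is the 1 that rose, at 0.22, and CALM2, PPIA, CSE1L and SLC38A2 fell, by 0.10 to 0.19; EGR3, at -1.47, passed the count filter only through its DMSO libraries.

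Calmodulin is the calcium sensor that activates calcineurin, and several genes encode the same calmodulin protein, CALM2 and CALM3 among them. CALM2 (ENSG00000143933, chromosome 2, 47160082 to 47176601, minus strand) fell, from 250.3, 243 and 267 CPM in DMSO to 218, 229 and 220.1 CPM in BPAF. All BPAF libraries lay below all DMSO libraries, and edgeR estimated -0.19 ± 0.03 (SE) for the log2 fold change, adjusted p = 0.00302. CALM3 did not pass, with -0.05 for the log2 fold change and an edgeR adjusted p of 0.305, and whether CALM2 differed in its response from CALM3 was not tested. The deposited TPM of CALM2 was 345 ± 8.58 in DMSO and 317 ± 5.41 in BPAF (SD, n = 3). Its deposited counts were whole in 0 of 6 libraries, and its exons overlap a second annotated coding gene on the same strand, so its counts are uncertain.

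In the same list of 16 tested calmodulin, calcineurin partner and inhibitor genes, PPIA also fell and 0 rose. Among all tested genes, 3.40% fell and 2.65% rose. PPIA encodes cyclophilin A, the protein through which the drug cyclosporin inhibits calcineurin. Its level was 1663 ± 4.93 CPM in DMSO and 1556 ± 26.3 CPM in BPAF (SD, n = 3), and edgeR estimated -0.10 ± 0.03 (SE) for the log2 fold change, adjusted p = 0.0365. The deposited TPM of PPIA was 4730 ± 114 in DMSO and 4690 ± 17.1 in BPAF, with overlapping groups. PPIA has many processed pseudogenes, its counts were whole in 0 of 6 libraries, and its call was lost in 5 of the 6 leave-one-library-out fits, all but that without BPAF replicate 2 (adjusted p from 0.0367 to 0.185), and with upper quartile scaling (0.0653). The list median was -0.021.

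NFATC2IP, which encodes a protein that binds NFATC2, was the 1 gene that rose among 16 tested NFAT kinases, partners and transport genes (ENSG00000176953, chromosome 16, 28950807 to 28967097, plus strand). It was at 122, 119.0 and 121 CPM in DMSO and 146, 139.6 and 137 CPM in BPAF, with the groups apart. The log2 fold change was 0.22 ± 0.03 (SE) by edgeR, with an adjusted p of 0.00104 and an interval from 11.0% to 22.7%, and it passed in 6 of 6 leave-one-library-out fits. On the deposited TPM its level was 56.2 ± 1.84 in DMSO and 75.6 ± 2.70 in BPAF (SD, n = 3). The log2 difference on log2 of TPM plus 1 was larger, 0.42. Limma did not call it (adjusted p = 0.0678), in a fit that called 1 of all 15490 tested genes. Exons of NFATC2IP overlap an antisense gene, and its deposited counts were whole in 0 of 6 libraries. CSE1L, which returns importin alpha to the cytoplasm, fell by 0.10 on the log2 scale (edgeR adjusted p = 0.0436), a call lost in all 6 leave-one-library-out fits (adjusted p from 0.0548 to 0.172), in DESeq2 (0.0686), with upper quartile scaling (0.0772) and with the length and GC offset (-0.06 on the log2 scale, 0.270). The nuclear import and export receptor genes KPNB1 (-0.06, adjusted p = 0.250) and XPO1 (-0.05, 0.354) did not pass. Of the 16 tested genes of the list, 1 rose and 1 fell, against 2.65% higher and 3.40% lower among all tested genes. The list median was -0.0036, and it held the kinases that return NFAT to the cytoplasm, GSK3B, DYRK1A and CSNK1A1 among them, of which none passed.

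Genes that calcium and NFAT induce in activated T cells were largely too low to test, since 21 of 31 did not pass the count filter. IL2 had 0 counts in 5 libraries and 2 in BPAF replicate 2, and IFNG and CSF2 had 0 in all 6, which allows up to 3 counts per library, or 0.131 to 0.147 CPM, by counting error only. Of the 10 tested, 0 rose, and EGR3, an early growth response factor, was called lower. The shares over all tested genes were 2.65% higher and 3.40% lower. EGR3 passed the filter only through the DMSO libraries, where it was higher, so its call depended on the difference itself and is given as a description. The counts of EGR3 were 17.9, 16 and 15 in the DMSO libraries against 7, 4 and 7 in the BPAF libraries, and edgeR estimated -1.47 ± 0.43 (SE) for the log2 fold change, adjusted p = 0.0439. The call was lost in all 6 leave-one-library-out fits (adjusted p from 0.0998 to 0.148), in DESeq2 (0.172) and with a filter on a total count of at least 10 (0.0633), which does not depend on the groups. CD69, an early activation marker, did not pass (-0.30, edgeR adjusted p = 0.0530). Its groups were apart, at 13.4, 13.6 and 14.6 CPM in DMSO and 10.7, 11.4 and 11.6 CPM in BPAF, as were those of 24.8% of all tested genes. CD69 kept its direction in all 16 alternatives and was called in 0 of them. BATF (0.22, 0.440) and TOX (-0.04, 0.611) did not pass either. The list median was 0.012.

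Of 9 tested NFAT5 tonicity-response genes, SLC38A2, an amino acid transporter gene that the amino acid response also controls, fell and 0 rose. Over all tested genes, 3.40% fell and 2.65% rose. SLC38A2 was at 277.6, 269.6 and 278 CPM in DMSO and 245, 248 and 249 CPM in BPAF with the groups apart, and edgeR estimated -0.15 ± 0.03 (SE) for the log2 fold change, adjusted p = 0.00313. On the deposited TPM its groups overlapped, at 108.6, 108.1 and 106.5 in DMSO and 99.7, 97.9 and 109.7 in BPAF. BPAF replicate 3 was the highest library on that scale. The osmolyte genes did not pass: AKR1B1, aldose reductase, had a log2 fold change of -0.04 (adjusted p = 0.611), SLC5A3, the inositol transporter, 0.01 (0.917), and SLC6A6, the taurine transporter, -0.01 (0.919). CDC42 (-0.09, 0.108) and HSPA1B (-0.03, 0.869) did not pass either. Counts of HSPA1B, which has a near-identical neighbour in HSPA1A, and of SLC5A3 were whole in 0 of 6 libraries and are uncertain. The list median was -0.033.

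Of the 6 calls in these lists, CALM2, NFATC2IP and SLC38A2 passed in all 6 leave-one-library-out fits. The count of 6 became 3 without DMSO replicate 1, 2 or 3 or BPAF replicate 1 or 3, and 5 without BPAF replicate 2. Limma on TPM called none of the 6 genes at either pseudocount. Over all 15490 tested genes it called 1 with TPM plus 1 and 2 with TPM plus 0.1, so this loss is not particular to the 6.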

How the data were processed

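The authors deposited a table of estimated counts per gene, some with decimals, and a table of TPM values for the same features. FastQC, cutadapt, HISAT2 and featureCounts with builds GRCh38 and hg38 are named, without versions, per the submitters' processing notes. The sources used here do not say how the decimals and the TPM values arose. Symbols came from a table of gene identifiers, positions and exon lengths from GENCODE 29 (GRCh38) and promoter windows from RefSeq (GRCh38.p14), which held windows for 6 of the 10 genes.

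Estimated counts were rounded to whole numbers. In R 4.3.3, edgeR 4.0.16 removed low genes (filterByExpr), computed TMM factors and ran its robust quasi-likelihood test with no covariate and Benjamini-Hochberg adjustment, called at 0.05. SE was the log2 fold change divided by the square root of F, and 95% intervals used the total degrees of freedom of each gene. Depth was 20253656 to 22617613 counts, and the biological coefficient of variation was 3.77%. All 15 pairs of libraries differed by more than sampling noise (chi-square over its degrees of freedom 2.38 or more). Alternatives used DESeq2 1.42.0 without independent filtering, limma 3.58.1 (voom, or log2 of TPM plus 1 or 0.1), other scalings and filters, a replicate block and each library left out. A gene offset fitted to exon length and GC content was chosen after seeing the data. The test was checked on simulated counts.

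The genes and lists were chosen with earlier results of these data known. Named were the 10 genes, every called gene of a list and otherwise up to 4 with the smallest p, and the list genes most correlated with RCAN1. The values of 1 list gene that this rule names are not reported here. SLC5A3, SLC6A6, NFATC4, IL2, IFNG, CSF2, GSK3B, DYRK1A, CSNK1A1 and the shares of ORAI and STIM genes were added after their values were seen.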

Additional observations from a re-analysis of the deposited data

How the results depend on the processing

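The 10 genes gave 0 calls in edgeR and in each of 16 alternatives, with adjusted p from 0.0864 upward. Precision at this depth is given by the intervals in the text, and whether depth or the number of libraries set the count of 0 was not tested. NFAT5, PPP3CA, RCAN1 and STIM1 kept their direction in all 16. The count over all tested genes, 938, was 1 with limma on log2 of TPM plus 1 and 2 with plus 0.1, and ranged from 322 (without BPAF replicate 1) to 861 with 1 library left out, 392 without BPAF replicate 3 and 482 without DMSO replicate 1. The 6 calls of the surrounding lists became 0 with both TPM fits, and 3 to 5 with 1 library left out. Upper quartile scaling gave 461 higher and 400 lower, against 411 and 527, and the length and GC offset gave 349 and 488. The causes were not tested.

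Samples with the same replicate number did not deviate together (correlations 0.0010, -0.043 and 0.014), and 1 of 3 numbers matched best with its own. No pairing by number was seen, but with 3 libraries per group this comparison cannot exclude it. With the replicate number as a block, 826 genes were called, the surrounding lists gave 3 calls, those of PPIA (adjusted p = 0.0738), CSE1L (0.0607) and EGR3 (0.0677) being lost, PPP3CB had a log2 fold change of 0.000704, and no call among the 10 genes was made.

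Signs changed for the genes below, whose main log2 fold changes reached -0.09 for MCU and -0.07 for NFATC2. On log2 of TPM plus 1 and plus 0.1 the log2 fold changes were 0.0341 and 0.0386 for NFATC2, 0.0734 and 0.0753 for NFATC3, 0.0746 and 0.0772 for PPP3CB, 0.0534 and 0.0544 for PPP3R1, 0.0252 and 0.0266 for MCU, 0.064 and 0.0641 for CALM3, 0.056 and 0.0561 for KPNB1, 0.0488 and 0.0491 for XPO1, 0.047 and 0.0478 for TOX, 0.012 and 0.0121 for AKR1B1, and 0.0558 and 0.0575 for HSPA1B. PPP3CB was at 0.00964 with upper quartile scaling, 0.00274 with at least 1 CPM in 3 libraries and 0.0194 with the length and GC offset, where NFATC1 was at -0.0312 and PPP3R1 at 0.00512. With 1 library left out, log2 fold changes ranged from -0.0515 to 0.0369 for PPP3CB, -0.0521 to 0.0112 for NFATC3, -0.00172 to 0.0533 for NFATC1, -0.016 to 0.0679 for ORAI1 and -0.104 to 0.0346 for HSPA1B. EGR3 was left out by the filter of 1 CPM in 3 libraries and has no value there.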
